A study of Homo sapiens with 8 samples.

Results

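The replication-dependent histone genes were followed in LX-2 cells, an immortalized human hepatic stellate cell line with myofibroblast features, after inhibition of O-GlcNAc transferase (OGT). Genes were taken when their symbol in the count files begins with HIST1H, HIST2H, HIST3H or HIST4H and when their counts summed to at least 10 over the 8 libraries. Of 66 such rows among 16796 genes, 58 passed this minimum and the other 8 had totals of 1 to 7 counts. Identical values were listed in every library for HIST2H2AA3 and HIST2H2AA4, for HIST2H3A and HIST2H3C, and for HIST2H4A and HIST2H4B. Each of these sets was counted once as a gene, and the values given for it are those of 1 row. Sums and shares of counts include both rows of a set. Reads that fit more than 1 gene were divided by estimation in the deposited counts, and 22 of the 58 rows held a fractional count in at least 1 library. Counting the sets once left 55 genes, comprising 5 for the linker histone H1, 13 for H2A, 15 for H2B, 13 for H3 and 9 for H4. By genomic cluster, 44 genes belonged to HIST1 on chromosome 6, 8 to HIST2 on chromosome 1, 2 to HIST3 on chromosome 1 and 1 to HIST4 on chromosome 12.

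LX-2 cells in 5% fetal bovine serum were exposed for 24 h to the vehicle DMSO (control) or to 50 µM OSMI-1, a small-molecule inhibitor of OGT (hereafter OGTi), with 4 libraries in each group. All libraries therefore came from 1 cell line, which carries the SV40 large T antigen, and no untreated group without vehicle was used here. OGT is the enzyme that places O-linked N-acetylglucosamine on intracellular proteins. RNA was captured through its poly(A) tail before sequencing.

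Replication-dependent histone genes supply the H1, H2A, H2B, H3 and H4 proteins that package newly replicated DNA, and their mRNAs accumulate in S phase. They lack introns, and their mRNAs usually end just after a conserved stem-loop that is bound by the protein SLBP, without a poly(A) tail. Some of these genes also make longer, polyadenylated transcripts, in particular when cells leave the cycle or differentiate. Because of the poly(A) capture, the values below describe the captured part of each gene's mRNA, and a change in total mRNA and a change in the share carrying a tail cannot be told apart. Likewise, in bulk RNA a change in the fraction of cells expressing a gene and a change in RNA per cell cannot be told apart.

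The stem-loop that defines these mRNAs was looked up first. In the GRCh38 genome, a stem-loop of 16 bases followed the stop codon of each of the 58 rows by 22 to 67 bases (median 35). The copies below belong to the single row with the highest mean count in the H1, H2B and H4 classes and to HIST2H2BE. They are written 5′ to 3′ as DNA with the stem-loop in capitals, and the capitals lie at chr6:26055744-26055759, minus strand for HIST1H1C, at chr6:27146366-27146381, minus strand for HIST1H2BK, at chr1:149886188-149886203, minus strand for HIST2H2BE and at chr6:26285131-26285146, minus strand for HIST1H4H.
HIST1H1C: aaaaGGCTCTTTTCAGAGCCaccac
HIST1H2BK: caaaGGCTCTTTTAAGAGCCactta
HIST2H2BE: caaaGGCTCTTTTCAGAGCCaccca
HIST1H4H: caaaGGCCCTTTTCAGGGCCgccca

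The stem of the H4 genes differed from that of the other classes. A stem opening with GGCCC and closing with GGGCC was found in 10 of 10 H4 rows and in 0 of 48 rows of the other classes. The sequence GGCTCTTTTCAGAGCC was the most frequent form, with 37 rows from the H1, H2A, H2B and H3 classes. The form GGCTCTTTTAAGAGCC of HIST1H2BK was present in 7 rows.

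Promoters separated the classes as well. The octamer ATTTGCAT, the recognition sequence of the POU factor OCT1 in H2B promoters, was searched on both strands of the 250 bases before the RefSeq start of each gene. It occurred in 11 of 15 H2B promoters and in 8 of 13 H2A promoters, against 1.66% of 27305 RefSeq promoters. Among the other classes it occurred in 1 of 12 H3 promoters, 0 of 5 H1 promoters and 0 of 9 H4 promoters, and that H3 gene, HIST1H3D, shares its annotated start with HIST1H2AD. CCAAT, a motif read by NF-Y, was found in 46 of 54 histone promoters and in 33.0% of RefSeq promoters. It was in every H1, H2A, H2B and H3 promoter searched but in only 1 of 9 H4 promoters. TATAAA, the core of the TATA box, was found in 34 of 54 histone promoters against 11.1%. Both motifs were counted on either strand anywhere in the 250 bases, so a counted TATAAA need not be a TATA box near the start. These shares cover 54 of the 58 rows, without HIST1H2AH, HIST1H3I, HIST1H3J and HIST1H4C. The windows of genes that start head to head overlap, so 1 octamer was counted for both genes of such a pair. In every H2A promoter with an octamer except that of HIST1H2AL, it was the same 8 bases as in the head-to-head H2B gene. The last 100 bases before the start (GRCh38.p14, RefSeq) are printed for the 3 most abundant H2B genes and for HIST1H2BJ, a close neighbour of HIST1H2BK, to show the arrangement of these elements. ATTTGCAT and TATAAA are in capitals, and the sequences run 5′ to 3′ on the coding strand from chr6:27146859-27146958, minus strand for HIST1H2BK, chr6:27132796-27132895, minus strand for HIST1H2BJ, chr1:149886683-149886782, minus strand for HIST2H2BE and chr6:26158021-26158120, plus strand for HIST1H2BD.
HIST1H2BK: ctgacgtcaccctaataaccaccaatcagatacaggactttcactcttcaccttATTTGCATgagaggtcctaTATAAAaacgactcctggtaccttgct
HIST1H2BJ: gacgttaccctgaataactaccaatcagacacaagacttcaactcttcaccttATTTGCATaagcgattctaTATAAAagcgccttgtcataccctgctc
HIST2H2BE: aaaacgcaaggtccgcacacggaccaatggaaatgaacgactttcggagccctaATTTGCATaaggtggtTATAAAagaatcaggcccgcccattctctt
HIST1H2BD: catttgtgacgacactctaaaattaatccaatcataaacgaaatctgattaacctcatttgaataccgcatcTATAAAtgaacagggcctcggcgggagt

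In HIST1H2BK, HIST1H2BJ and HIST2H2BE the octamer began 46, 47 and 46 bases before the start. The same 8 letters were not in the 250-base window of HIST1H2BD.

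Libraries held 24166756 to 28201215 counts. Histone rows made up a small share, with 166, 329, 227 and 200.1 CPM (counts scaled to library total) in control replicates 1 to 4 and 452, 969, 626 and 488 CPM in the OGTi replicates. Replicate 2 stood high in both groups: of the 31 histone genes with at least 100 counts in total, 20 had their highest control value and 25 their highest OGTi value in replicate 2. Same-numbered libraries were compared as pairs, and results that rest on replicate 2 are given with and without it. The stellate cell and myofibroblast markers summed to 178805 to 207210 counts in control and 131273 to 167627 in OGTi libraries, with COL1A1, COL1A2, COL3A1, PDGFRB, ACTA2 and VIM present and LUM near 0. Of the markers of other cell types, the hepatocyte list summed to at most 18 counts, the cholangiocyte list to at most 3 and the endothelial list to at most 97 in any library. The leukocyte list summed to 2637 to 3923 counts in control and 5580 to 10275 in OGTi libraries, nearly all of it CD68, while the pan-leukocyte marker PTPRC had at most 10 counts.

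OGTi raised the captured histone transcripts as a group. Summed over all 58 rows, normalized counts went from 6227 ± 1836 to 16132 ± 6145 (mean ± SD, n = 4). The log2 ratio of OGTi to control was 1.35 ± 0.15 (SD over 4 pairs), with a range of 1.15 to 1.51. Tested gene by gene with DESeq2, 25 genes rose, 0 fell, 21 did not pass an adjusted p of 0.05 and 9 with at most 24 counts in total were left without an adjusted p by the filter on low counts. Across all 14028 genes with an adjusted p, 22.7% rose and 24.0% fell. At an unadjusted p of 0.05, 26 histone genes were higher and 0 lower, and edgeR with the same pairing called 27 higher and 0 lower. The median log2 fold change (log2 FC) over the 55 genes was 1.14, against 0.0045 over all genes. In 30 of the 55 genes the OGTi value was above the control value in all 4 pairs, which was the case for 27.8% of all genes. In 23 of the 55 every OGTi library lay above every control library, compared with 18.8% of all genes. Without replicate 2, 21 histone genes rose and 0 fell.

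Whether a gene was called followed its count. All 18 genes with a total of at least 500 counts rose. Of the 13 genes with at least 100 and fewer than 500 counts 5 rose, and of the 24 genes with fewer than 100 counts 2 rose, HIST1H2BF and HIST3H2BB. Median log2 FC in these 3 count classes was 1.42, 0.91 and 0.88. Standard errors ran from 0.07 for HIST1H2BK to 2.13 for HIST1H2BM, a gene with 11 counts in total, so a change was often not detectable in the low genes at this depth.

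**Figure D1:**
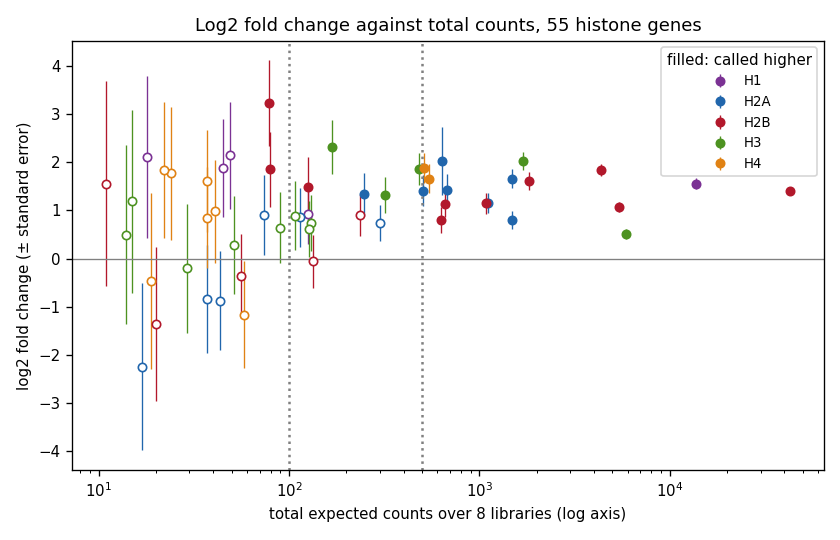
Log2 FC of OGTi against control with its standard error, plotted for the 55 histone genes against the total expected counts over 8 libraries on a log axis, with colour for class and filled points for genes called higher. Dotted lines mark 100 and 500 counts, and all 18 genes right of the second line are filled.

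A few genes carried most of the signal. HIST1H2BK, HIST1H1C, HIST2H3PS2, HIST2H2BE, HIST1H2BD and HIST1H2AC, the 6 single rows with the highest control means, made up 81.5% of histone counts in control and 80.6% in OGTi libraries. H2B genes alone made up 62.6% and 63.5%.

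**Figure D2:**
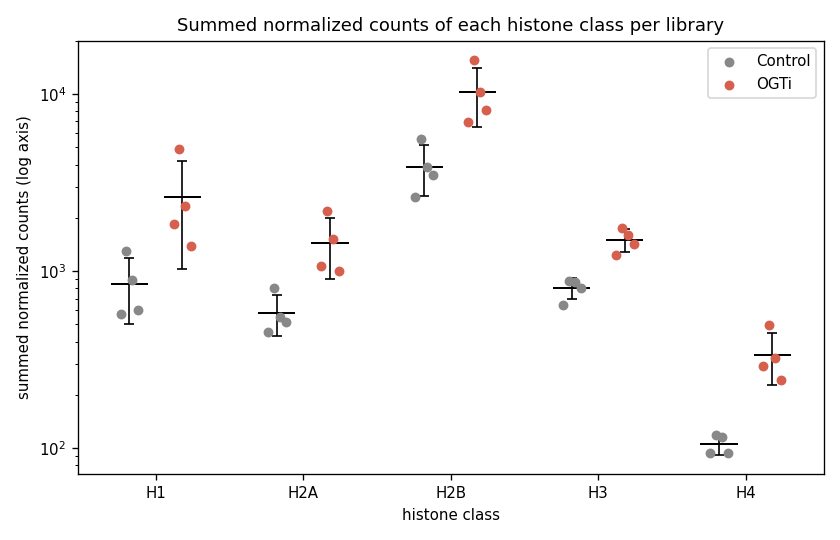
Summed normalized counts of all rows of each class on a log axis, with 1 point per library, the mean as a horizontal line and the SD over 4 libraries as a bar. In each of the 5 classes the 4 OGTi points lie above the 4 control points.

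Linker histone H1 binds the DNA between nucleosomes. The class sum went from 842 ± 341 to 2612 ± 1581 normalized counts, with a log2 ratio of 1.55 ± 0.32 over the 4 pairs, and HIST1H1C (current symbol H1-2, chr6:26055740-26056470) made up nearly all of it. HIST1H1C had 556, 1289, 864 and 593 normalized counts in control replicates 1 to 4 and 1789, 4848, 2282 and 1358 in the OGTi replicates. The groups did not overlap, and replicate 2 was the highest library of each. This was a rise from 826 ± 338 to 2569 ± 1565 (log2 FC 1.55 ± 0.11, adjusted p = 5.91e-43). Of the other 4 genes none rose or fell by the test. HIST1H1E had log2 FC 0.92 ± 0.62, HIST1H1B 1.88 ± 1.02 and HIST1H1D 2.15 ± 1.11, each with at most 45.2 normalized counts in any library. Without replicate 4, HIST1H1D had a log2 FC of 3.08 and passed the test (adjusted p = 0.0476). HIST1H1T, a testis form, had 18 counts in total and no adjusted p.

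H2A genes encode a core histone that pairs with H2B. Their sum went from 582 ± 153 to 1442 ± 543, with a log2 ratio of 1.27 ± 0.23. Of 13 genes, 7 rose, 5 were not called and 1 had no adjusted p. HIST1H2AC (H2AC6) was the single row with the highest mean count. It had 83.8, 193, 124 and 129 normalized counts in the control replicates and 143, 366, 237 and 187 in the OGTi replicates. Each pair rose, but control replicate 2 was above OGTi replicates 1 and 4, so the groups overlapped. The change was 132 ± 45.0 to 233 ± 96.1 (log2 FC 0.80 ± 0.18, adjusted p = 5.21e-05), the lowest log2 FC among the 7 called H2A genes. HIST2H2AA3/4 changed more, from 85.5 ± 26.6 to 279 ± 126 in each of its rows (log2 FC 1.66 ± 0.19, adjusted p = 2.4e-16). With both rows added, this set was above HIST1H2AC. HIST1H2AG went from 85.2 ± 15.5 to 189.5 ± 26.9 (log2 FC 1.16 ± 0.21, adjusted p = 1.56e-07). HIST3H2A (1.43 ± 0.32), HIST1H2AI (1.41 ± 0.32) and HIST1H2AE (1.33 ± 0.45) rose too. HIST1H2AE lost its call without replicate 1 (adjusted p = 0.0765), without replicate 2 (adjusted p = 0.0862) and without the pairing (adjusted p = 0.0517).

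HIST1H2AD (H2AC7) had the largest log2 FC of the called H2A genes and was the least even. It was listed at 3.90, 61.1, 21.8 and 58.2 normalized counts in control and 49.3, 251, 135 and 52.1 in OGTi replicates 1 to 4. Values rose in 3 of 4 pairs, replicate 4 was nearly level, and the groups overlapped. The fit gave log2 FC 2.02 ± 0.71, adjusted p = 0.0116, and the adjusted p was 0.0951 without replicate 1, 0.119 without replicate 3 and 0.0983 without the pairing. The 510 bases of HIST1H2AD lie inside HIST1H3D on the same strand, and both were listed with fractional counts in all 8 libraries, so reads were divided between them by estimation. Added together, HIST1H3D and HIST1H2AD had 67.2, 194, 108 and 107 normalized counts in control and 299, 731, 525 and 268 in OGTi replicates, a log2 ratio of 1.92 ± 0.42 over pairs. This sum rose in every pair and its groups did not overlap. The 3 H2A genes with a negative log2 FC, HIST1H2AH (-2.24 ± 1.74), HIST2H2AC (-0.87 ± 1.03) and HIST1H2AJ (-0.83 ± 1.12), had 17, 43.2 and 37 counts in total. HIST1H2AH had no adjusted p, and HIST2H2AC and HIST1H2AJ were not called.

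H2B genes had the highest sum and the largest number of calls. The class sum went from 3895 ± 1252 to 10239 ± 3763, with a log2 ratio of 1.38 ± 0.10, and 10 of 15 genes rose, 3 were not called and 2 had no adjusted p. HIST1H2BK (H2BC12, chr6:27138293-27146858), whose promoter and stem-loop are shown above, had 1909, 4370.1, 2714 and 2468 normalized counts in control replicates 1 to 4. Its OGTi libraries held 4991, 12281, 7527 and 5779.9. All OGTi libraries exceeded all controls, with replicate 2 highest in both groups, and the rise was 2866 ± 1058 to 7645 ± 3267 (log2 FC 1.39 ± 0.07, adjusted p = 7.75e-78).

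HIST2H2BE (H2BC21) had 271, 488, 509 and 447 normalized counts in control and 555, 963, 1155 and 952 in OGTi replicates. Its deposited counts were fractional in all 8 libraries. Replicate 1 was the lowest of each group and replicate 3 the highest, and no control reached an OGTi library (log2 FC 1.07 ± 0.11, adjusted p = 4.75e-22). HIST1H2BD (H2BC5) had 197, 297, 223 and 213 against 819, 1111, 754 and 662. Its lowest OGTi library was above its highest control by a wide margin, and its log2 FC was larger than that of HIST1H2BK or HIST2H2BE (log2 FC 1.84 ± 0.12, adjusted p = 2.28e-47), a difference between genes that was not tested. HIST1H2BC (H2BC4) was lower, at 38.0, 53.5, 62.1 and 47.8 in control and 62.1, 149.7, 132 and 109 in OGTi replicates, with OGTi replicate 1 level with control replicate 3 (log2 FC 1.13 ± 0.27, adjusted p = 0.000102).

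HIST1H2BF (H2BC7) showed the largest log2 FC of any called histone gene, from very few counts. It had 1.95, 3.76, 0 and 2.08 normalized counts in control and 11.0, 27.1, 13.5 and 17.0 in OGTi replicates, without overlap (log2 FC 3.23 ± 0.89, adjusted p = 0.00101). The remaining called H2B genes were HIST1H2BJ (1.61 ± 0.18), HIST2H2BF (1.14 ± 0.22), HIST1H2BO (0.80 ± 0.28), HIST1H2BG (1.48 ± 0.62, adjusted p = 0.0393) and HIST3H2BB (1.85 ± 0.78, adjusted p = 0.0377). HIST1H2BG lost its call without replicate 1, 2 or 3 (adjusted p = 0.144 to 0.185) and without the pairing (adjusted p = 0.0502), HIST1H2BO without replicate 1, 2 or 4 (adjusted p = 0.0738 to 0.0933) and HIST3H2BB whichever replicate was left out (adjusted p = 0.0916 to 0.143). Not called were HIST1H2BH (log2 FC 0.91 ± 0.43, adjusted p = 0.0699), HIST1H2BN (-0.06 ± 0.55) and HIST1H2BL (-0.36 ± 0.87). Of the 9 H2B genes with the octamer and an adjusted p, 8 rose. Of the 4 without it, 2 rose, HIST1H2BD and HIST3H2BB. Median totals differed as well, at 629 counts for the 11 H2B genes with the octamer and 106.5 for the 4 without. The part of counts in this split was not tested.

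**Figure D3:**
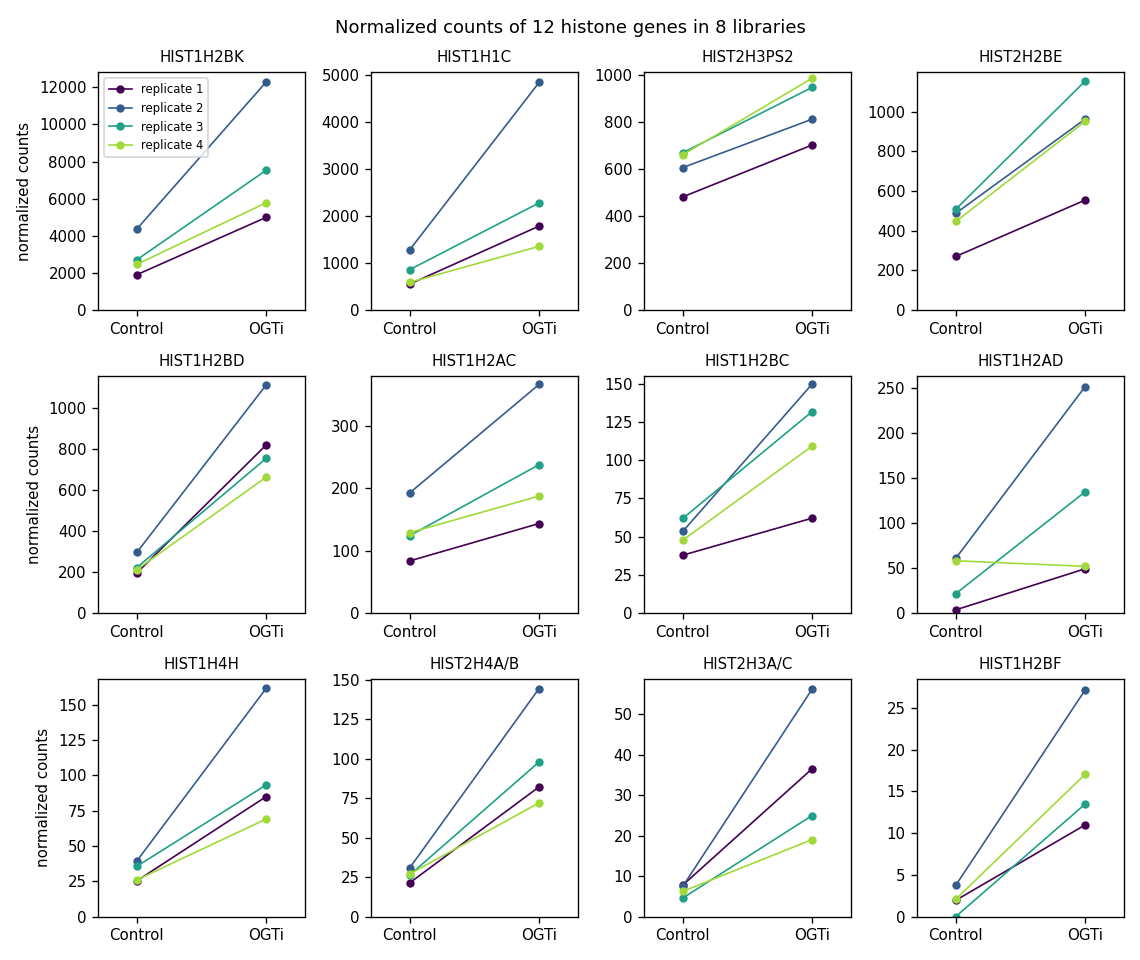
Normalized counts of 12 histone genes in the control and OGTi libraries, with each line joining libraries of the same replicate number and each panel on its own linear axis from 0. Lines rise in all 4 pairs of each gene except HIST1H2AD, where replicate 4 goes from 58.2 to 52.1.

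H3 had the smallest change of the 5 class sums. Normalized counts went from 802 ± 109.8 to 1500.5 ± 225, with a log2 ratio of 0.90 ± 0.07 and pair values of 0.82 to 0.98. These lay below the 4 pair values of H2B, which ran from 1.23 to 1.47, and below those of H4. Pair values of H2A ran from 0.96 to 1.46 and overlapped those of H3. The class value rested on HIST2H3PS2. This gene at chr1:143902386-143905977 is named as a pseudogene, but RefSeq lists it as protein coding under the symbol H3-7. It had 482, 607, 670.0 and 661 normalized counts in control and 703, 813, 948 and 987 in OGTi replicates. Its deposited counts were fractional in 7 of 8 libraries, so some reads were divided between it and other genes by estimation. The groups did not overlap, and replicate 2 was not the highest here. Its rise from 605 ± 86.6 to 862 ± 130.0 (log2 FC 0.51 ± 0.10, adjusted p = 2.96e-06) was the smallest of the 25 called genes. Without it the log2 ratio of the H3 sum was 1.68.

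Of the other 12 H3 genes, 4 rose. HIST1H3D (H3C4) had 63.3, 133, 86.2 and 48.9 normalized counts in control and 249, 480.1, 390.3 and 216 in OGTi replicates. Its groups were apart (log2 FC 2.03 ± 0.18, adjusted p = 7.72e-28), with the reads shared with HIST1H2AD as described above. HIST2H3A/C had the largest log2 FC of the class, at 7.79, 7.52, 4.60 and 6.24 in control and 36.6, 56.2, 25.0 and 19.0 in OGTi replicates, again without overlap (log2 FC 2.32 ± 0.56, adjusted p = 0.000134). HIST1H3H (1.86 ± 0.33) and HIST1H3G (1.33 ± 0.38) rose too, whereas 6 genes, HIST1H3B, HIST1H3C, HIST1H3E, HIST1H3F, HIST1H3J and HIST2H3D, were not called, with log2 FC from -0.20 to 0.89.

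H4 genes were the lowest class by counts, with sums going from 106 ± 13.7 to 338 ± 109 and a log2 ratio of 1.63 ± 0.30. Of 9 genes, 2 rose, 4 were not called and 3 had no adjusted p. HIST1H4H (H4C8) had 25.3, 39.5, 35.6 and 26.0 normalized counts in control and 85.0, 162, 93.3 and 69.1 in OGTi replicates, and HIST2H4A/B had 21.4, 31.0, 26.4 and 27.0 against 82.2, 145, 98.1 and 72.1. Neither gene had overlapping groups, and OGTi replicate 2 was the highest library of both. The fits gave 1.66 ± 0.30 (adjusted p = 2.04e-07) for HIST1H4H and 1.88 ± 0.31 (adjusted p = 1.37e-08) for HIST2H4A/B. HIST2H4B overlaps HIST2H2AA4 and HIST2H3A on the opposite strand, and the authors counted reads with a strand-specific setting. The other 7 genes had 18.9 to 58.1 counts in total. Of these HIST1H4K had the most counts and a log2 FC of -1.16 ± 1.11, which was not called.

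**Figure D4:**
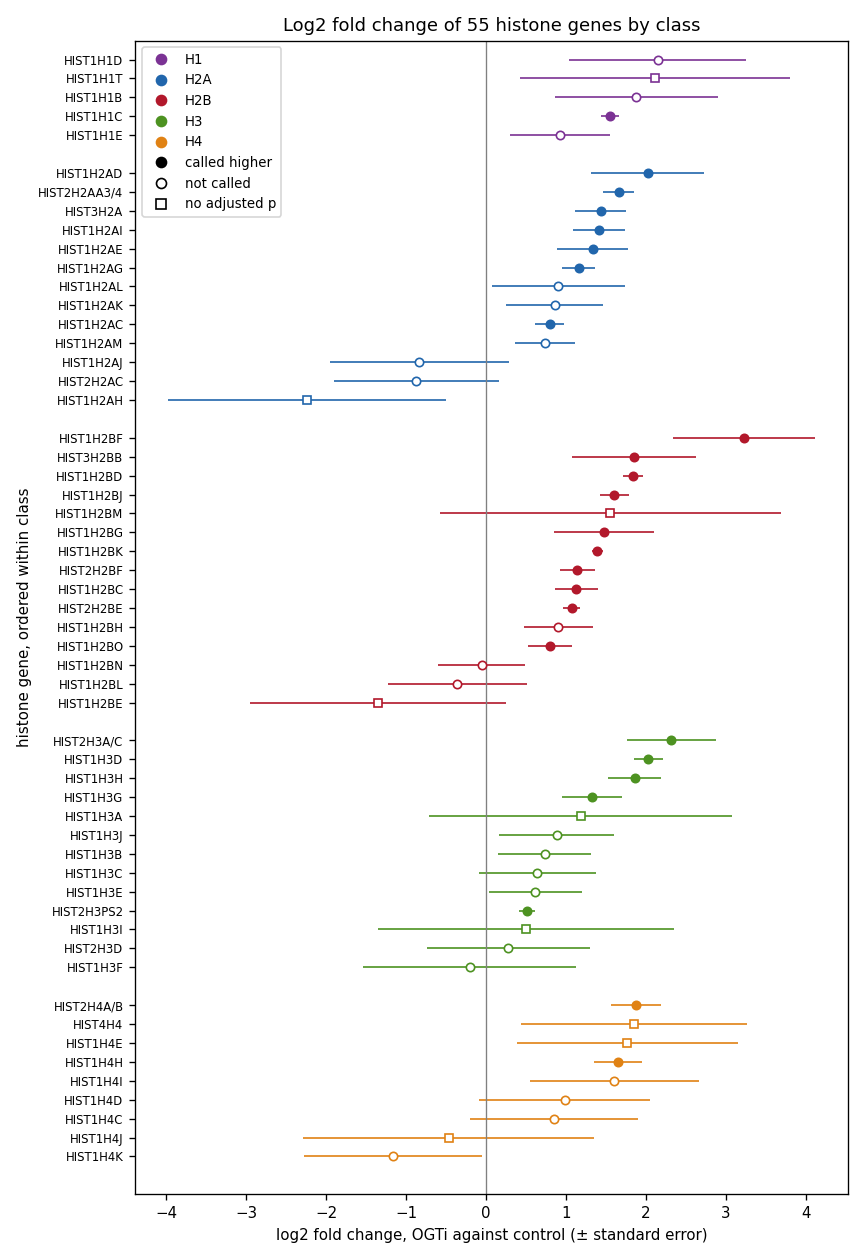
Log2 FC of OGTi against control with its standard error for the 55 histone genes, ordered within the classes H1, H2A, H2B, H3 and H4. Filled circles are the 25 genes called higher, open circles the 21 not called and open squares the 9 without an adjusted p. Genes left of 0 have standard errors of 0.55 (HIST1H2BN) to 1.82 (HIST1H4J), and those of called genes reach 0.89 (HIST1H2BF).

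Calls came from 3 of the 4 clusters. HIST1 had 17 genes that rose of 36 with an adjusted p, HIST2 had 6 of 8 and HIST3 had 2 of 2, while the single HIST4 gene had none. Median log2 FC was 1.06 in HIST1, 1.11 in HIST2 and 1.64 in HIST3. Within HIST1, 11 of 20 genes with an adjusted p rose in the first part of the cluster, HIST1H3A to HIST1H4H. In the second part, HIST1H2BJ to HIST1H2BO, which lies nearer the centromere, 6 of 16 rose.

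Many H2A and H2B genes sit head to head, transcribed away from each other, and can share promoter elements. There were 11 such H2A and H2B pairs, with 194 to 248 bases between the starts. In 5 pairs both genes rose, in 4 pairs 1 gene rose and in 2 pairs neither did. Paired genes were often captured at very different levels. HIST1H2BK lies 248 bases from HIST1H2AH. In control libraries its level was 5789 normalized counts per kilobase of annotated exon against 7.44 for HIST1H2AH, and when both were divided by the whole gene span instead, HIST1H2BK was still 45.0-fold higher. HIST1H2AH had 3.90, 7.52, 1.15 and 1.04 normalized counts in control and 0.914, 0, 1.92 and 0 in OGTi replicates, while HIST1H2BK rose. HIST2H2BE and HIST2H2AC, 236 bases apart, had 193 and 13.8 normalized counts per kilobase in control. HIST2H2AC had 9.74, 8.45, 6.90 and 2.08 normalized counts in control and 0.914, 3.01, 4.81 and 7.01 in OGTi replicates, overlapping groups without a call. By contrast HIST1H2BJ and HIST1H2AG, 248 bases apart, were at 106 and 173 per kilobase and both rose, by 1.61 ± 0.18 and 1.16 ± 0.21 on the log2 scale. Divided by gene span instead, HIST1H2BJ was 1.33-fold above HIST1H2AG in control libraries.

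**Figure D5:**
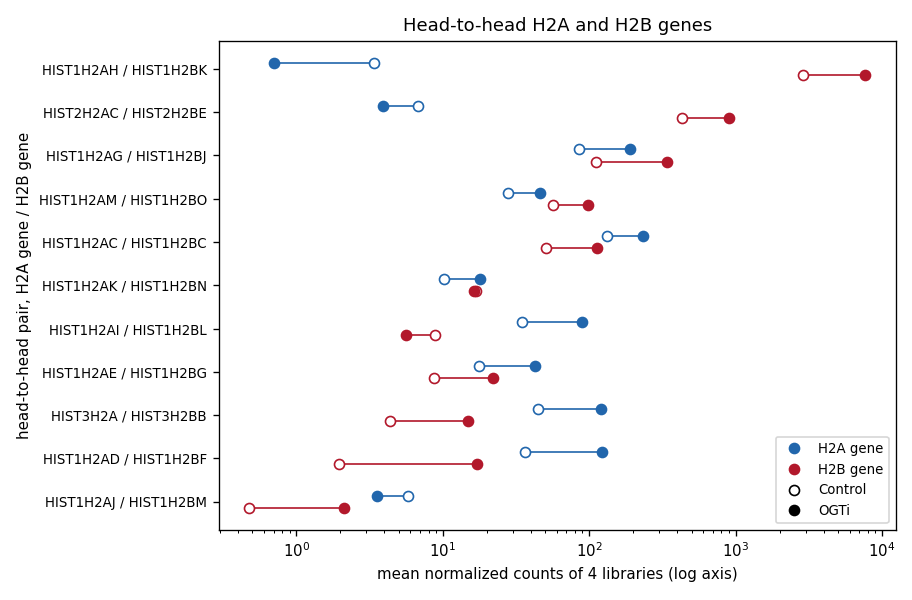
Mean normalized counts of 4 control libraries (open) and 4 OGTi libraries (filled) on a log axis for the H2A gene (blue) and the H2B gene (red) of 11 head-to-head pairs. HIST1H2BK lies far right of HIST1H2AH, while HIST1H2BJ and HIST1H2AG lie close together and both move right.

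Transcript annotation was compared with the response. A GENCODE or RefSeq transcript running more than 50 bases past the stem-loop was listed for 17 of the 55 genes, among them HIST1H2BK, HIST1H2BD, HIST2H2BE and HIST2H3PS2. Of the 15 of these with an adjusted p, 13 rose, with a median log2 FC of 1.39 over the 17. Of the 31 others with an adjusted p, 12 rose, with a median of 0.95 over 38 genes. The counts differed alongside, with a median total of 659 against 76.2, and their part in this difference was not tested. A list of 7 genes known to make polyadenylated forms, HIST1H1C, HIST1H2AC, HIST1H2BC, HIST1H2BD, HIST1H2BK, HIST2H2BE and HIST1H4H, rose in 7 of 7 cases, with a median log2 FC of 1.39. Each of the 7 had at least 544 counts in total, and all 18 histone genes with at least 500 counts rose (median 1.42). The list therefore cannot separate a polyadenylated form from a high count. HIST1H1C was in that list although neither annotation carried its transcript more than 4 bases past the stem-loop.

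Genes that make, process and use histone mRNA did not rise as the histone genes did. Among 20 factors for histone mRNA transcription and 3′ processing, 2 rose, 5 fell and 13 were not called, with a median log2 FC of -0.08. Without replicate 4 none of them rose. Across all genes with an adjusted p, 22.7% rose and 24.0% fell, so the share of factors that fell was near that of all genes. SLBP, which binds the stem-loop, had 3013, 3136, 3298 and 3175 normalized counts in control and 3018, 3394, 3301 and 3137 in OGTi replicates, overlapping groups with log2 FC 0.03 ± 0.07 (adjusted p = 0.807). NPAT, the coactivator of histone gene transcription, had log2 FC -0.19 ± 0.10 (adjusted p = 0.134), which passed the test without replicate 1 (-0.28, adjusted p = 0.0327). The strongest changes in this list were decreases, in the cleavage factor subunit CPSF2 (-0.75 ± 0.10), the Sm protein SNRPB (-0.43 ± 0.07) and the U7 snRNP protein LSM11 (-0.75 ± 0.18). LSM11 had 258, 216, 274 and 257 normalized counts in control and 133, 165, 141 and 156 in OGTi replicates, without overlap.

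More S phase genes fell than rose. Of 20 genes, 1 rose, 12 fell and 7 were not called, with a median log2 FC of -0.19. For all genes with an adjusted p, 22.7% rose and 24.0% fell. The replicative helicase subunit MCM5 (-0.51 ± 0.07), the DNA methylation maintenance factor UHRF1 (-0.50 ± 0.08) and the thymidylate synthase gene TYMS (-0.38 ± 0.07) fell, and the licensing factor CDC6 was the gene that rose (0.23 ± 0.08). Without replicate 4, 7 of the 20 fell, and without replicate 2, 0 rose and CDC6 had an adjusted p of 0.132. Normalized counts of CDKN1A, which encodes the cyclin-dependent kinase inhibitor p21, increased from 1297 ± 239.6 to 4873 ± 857 (1.91 ± 0.08). The part of these changes in the histone values was not tested.

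Among 14 histone chaperones, 2 rose, 5 fell and 7 were not called, with a median log2 FC of -0.13. The shares over all genes with an adjusted p were 22.7% higher and 24.0% lower. The FACT subunit SSRP1 (-0.71 ± 0.07), NAP1L1 (-0.37 ± 0.07) and RBBP7 (-0.35 ± 0.07) fell, and ASF1B (0.37 ± 0.08) and NASP (0.18 ± 0.07) rose. NASP did not pass without the pairing (adjusted p = 0.107) or with any one replicate left out (adjusted p = 0.0511 to 0.205). Of 12 genes for histone variants outside these clusters, most of which are expressed throughout the cell cycle, 3 rose, 3 fell and 6 were not called. Their median log2 FC was -0.03, and the shares of variants that rose and fell were near those of all genes. The variants that rose were H1F0 (0.57 ± 0.07), the linker histone of non-dividing cells, H2AFX (0.37 ± 0.08) and H2AFJ (0.45 ± 0.16), the last of which lost its call without replicate 2, 3 or 4 (adjusted p = 0.0759 to 0.172). CENPA (-1.14 ± 0.12), the centromeric H3, fell together with H2AFV (-0.65 ± 0.07) and H2AFY2 (-0.54 ± 0.14). The mRNA of the inhibitor's target, OGT, went from 5636 ± 260.5 to 4146 ± 477 normalized counts (-0.45 ± 0.09), and the opposing enzyme OGA fell by 1.80 on the log2 scale.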

How the data were processed

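RNA-seq was analysed in 8 LX-2 libraries, 4 control and 4 OGTi, grouped by their sample titles. Per the labels and the study's methods, the authors sequenced poly(A)-selected RNA as paired-end reads and aligned them to hg38 with Bowtie2 2.3.5.1. The authors deposited expected counts per gene as estimated by RSEM 1.3.1. Reads were aligned against a GENCODE annotation of GRCh38 and counted with a strand-specific setting. A deposited table with the authors' own comparison (fold changes and p-values) was not used.

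Expected counts were rounded, and the 14895 genes with a total of at least 10 were fitted in DESeq2 1.42.0 (R 4.3.3) with replicate number as a block and OGTi against control as the contrast. Wald p-values were adjusted by Benjamini-Hochberg over all genes, and log2 fold changes were not shrunken. Genes with an adjusted p of 0.05 or lower were called. Normalized counts are counts divided by DESeq2 size factors. Depth was 24166756 to 28201215 counts per library, so the precision of a gene followed its own count. Replicates were biological replicates according to the study's methods. The numbers pair the samples: deviations from the group mean correlated by 0.379, 0.303, 0.138 and 0.269 between same-numbered libraries (Pearson's r over 11702 genes, which are not independent), although control replicate 3 correlated more with OGTi replicate 4 (0.272) than with OGTi replicate 3.

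Class sums are described without a test. Members, gene lists and tests were chosen with earlier results of these data known. Values in every library are given for the row with the highest mean and the most raised called gene of each class and for a list of polyadenylated forms. Of each other list, the 3 genes with the largest Wald statistic are named, with SLBP, NPAT, OGT, OGA and CDKN1A. Further genes named beyond this rule were chosen after their values were seen. Sequences and positions came from GRCh38 with GENCODE 44 and RefSeq tables (GRCh38.p14), in which all 66 histone symbols were matched. The fits were tested on simulated data. Alternatives were no block, edgeR 4.0.16, TMM scaling, other count filters, a stricter threshold, leaving out each replicate and, added after seeing the data, identical rows summed.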

Additional observations from a re-analysis of the deposited data

Results flagged for a closer look

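A library far from the other 3 of its group was found for 5 of 128 groups of 4 values by Dixon's test, and chance gives about 1 in 20. For HIST1H2AE the second control library held 39.5 normalized counts, where the remaining controls held 8.77 to 13.5. HIST2H2AA3/4 reached 124.9 in that library, with 68.6 to 78.1 elsewhere in the group. In the first control library HIST1H2BJ was at 72.1 and HIST2H2BF at 40.9, below ranges of 121 to 126 and 96.7 to 106 among the remaining controls. CDKN1A reached 1653 in the fourth control library, above 1138 to 1218. Each of these libraries was a control.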

How the results depend on the processing

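Between 20 and 27 histone genes rose and 0 fell under the alternatives tried. Leaving out 1 replicate gave 20 to 24, the 0.01 threshold 22, and edgeR 27 with the replicate block and 23 without it. Without the replicate block, DESeq2 called 22 histone genes higher and 1 chaperone higher instead of 2. Of the 25 called genes, 19 were called in each of 12 alternatives at the 0.05 threshold. HIST1H2AD, HIST1H2AE, HIST1H2BG and HIST1H2BO lost the call at least once without 1 replicate, as did HIST3H2BB, while HIST1H2BF left the fit under the filter of 100 counts. None of the 25 changed direction. The log2 ratio of the H3 sum was 1.68 without HIST2H3PS2, while the other class sums without their most abundant row moved by less than their SD over pairs. Leaving out 1 replicate gave 0 to 2 higher calls among histone mRNA factors, 1 among chaperones, and 0 to 2 higher and 7 to 10 lower among S phase genes. The genes that changed sign were not called in any of these fits: without 1 replicate SLBP ran from -0.0038 to 0.039, HIST1H2BN from -0.23 to 0.079, HIST1H2BL from -0.69 to 0.020 and HIST1H4K from -2.97 to 0.085 on the log2 scale. Other fits moved the median of all genes by at most 0.0044. The cause of these shifts was not tested.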
